A study of Mus musculus with 7 samples.

Results

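The genes described here encode the receptor of colony-stimulating factor 1, its ligands and the receptor chains for the related factors. They are Csf1 and Il34, which encode the ligands, Csf1r, the receptor of both, Csf2ra and Csf2rb, the chains that bind granulocyte-macrophage colony-stimulating factor, and Csf3r, the receptor of granulocyte colony-stimulating factor. The set was chosen by name and not by a cut on measured values, though with earlier results of these data known. All 6 of its genes are among the 20859 listed in the count table.

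CSF1R is a receptor tyrosine kinase carried in the brain by microglia and the macrophages of its borders, and these cells depend on it to survive and divide. Its ligands come from different cells: in the forebrain IL-34 is made mainly by neurons, and CSF1 largely by glia. CSF2RA binds its ligand with CSF2RB, a signalling chain that also serves IL-3 and IL-5, while CSF3R is best known from neutrophils and their precursors.

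Transcripts were counted in cortex and hippocampus of mice of a model of Alzheimer's disease (FAD) and of wild-type (WT) mice, in a study of CD38, a surface enzyme that consumes NAD. The groups were WT mice given PBS (9 in cortex, 8 in hippocampus), FAD mice of the IgG group (7 and 7) and FAD mice of the CD38 group (7 and 7). Every WT mouse had PBS and no FAD mouse did, so genotype and injection cannot be told apart in the comparisons with WT. In mcSCRB-seq, the assay used, cDNA from transcript 3' ends carries the barcode of its well, and several mice are sequenced as 1 library pool. The FAD alleles and the promoter that drives them, the age and sex of the mice, and the dose and form of the CD38 and IgG agents were not given in the sources used here.

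The 47 wells, 1 for each mouse and region, came from 24 mice in 7 library pools and held 1270918 to 5101368 counts each. Counts of ribosomal RNA made up 3.28% to 27.03% of a well, and 6 wells were above 10%. Choroid plexus markers were high in 2 of these, hippocampi of FAD CD38 replicate 3 and FAD IgG replicate 5, and, less so, in the cortex of FAD CD38 replicate 7 (pool 11). Of 9 markers of hippocampus 8 were higher in the hippocampal wells, and of 9 markers of cortex 8 were higher in the cortical wells. Each of 7 striatal markers tested was also higher in the cortical wells than in the hippocampal ones. The tissue is bulk, so more cells of a type and more RNA per cell cannot be told apart in any value below. The 2 wells of 1 mouse in pool 8, for which the sample sheet says CD38 and the well name IgG, entered no comparison between groups.

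Promoter sequences from RefSeq (GRCm38.p6) are shown for Csf1, Csf2ra and Csf3r. Each runs from 250 bases before the annotated start of transcription to 50 bases after it, 5′ to 3′ on the strand of the gene. Capitals mark GAGGAA, the core bound by PU.1, the transcription factor that defines the myeloid lineage (gene symbol Spi1).
Csf1 (chr3:107760420-107760719, minus strand): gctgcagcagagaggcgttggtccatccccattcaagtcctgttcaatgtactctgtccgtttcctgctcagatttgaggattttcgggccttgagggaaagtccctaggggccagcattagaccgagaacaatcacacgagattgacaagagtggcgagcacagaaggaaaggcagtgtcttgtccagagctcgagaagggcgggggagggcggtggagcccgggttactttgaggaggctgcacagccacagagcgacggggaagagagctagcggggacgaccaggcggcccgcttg
Csf2ra (chr19:61228369-61228668, minus strand): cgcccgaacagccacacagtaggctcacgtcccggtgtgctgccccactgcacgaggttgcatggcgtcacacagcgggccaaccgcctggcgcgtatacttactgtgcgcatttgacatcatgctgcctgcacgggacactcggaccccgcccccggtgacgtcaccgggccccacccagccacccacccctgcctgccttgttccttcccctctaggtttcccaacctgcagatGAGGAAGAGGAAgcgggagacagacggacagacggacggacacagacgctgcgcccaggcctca
Csf3r (chr4:126024409-126024708, plus strand): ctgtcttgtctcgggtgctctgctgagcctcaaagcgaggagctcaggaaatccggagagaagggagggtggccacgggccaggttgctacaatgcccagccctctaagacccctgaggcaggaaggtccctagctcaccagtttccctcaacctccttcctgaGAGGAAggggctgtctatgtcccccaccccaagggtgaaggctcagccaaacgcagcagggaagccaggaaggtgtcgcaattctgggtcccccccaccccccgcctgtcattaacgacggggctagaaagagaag

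Csf2ra held 2 adjoining GAGGAA matches, whose first bases lie 14 and 8 bases before the start, and Csf3r held 1, at 86 bases before it. Csf1 held none in this window. Both strands were searched, and 28.3% of all 32851 promoters of this length in the table hold at least 1 such match. The C/EBP core TTGCNNAA (in 10.8% of promoters) and the AP-1 core TGANTCA (in 7.81%) were found in none of the 3. A match of letters is a description of the sequence and not evidence of binding.

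In the ligands, Csf1 was raised in FAD brain and Il34 was not. Levels are given in CPM, a gene's counts scaled to the total of its well. In WT cortex the lowest, median and highest mouse had 3.72, 4.73 and 6.71 CPM of Csf1. In FAD IgG cortex these were 7.79, 14.1 and 17.2 CPM, and in FAD CD38 cortex 7.93, 11.5 and 17.0 CPM. No FAD cortex was as low as the highest WT cortex, and the FAD groups overlapped each other over most of their range. The mean went from 5.11 ± 1.20 CPM (SD, n = 9) in WT to 13.2 ± 3.0 (n = 7) in FAD IgG. Fitted with the pool as a factor, this was a log2 fold change of 1.42 ± 0.18 (SE, edgeR's quasi-likelihood test, adjusted p = 5.53e-06). For FAD CD38 against WT it was 1.15 ± 0.18 (adjusted p = 8.24e-05, mean 11.6 ± 3.30 CPM, n = 7).

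In WT hippocampus the lowest, median and highest Csf1 levels were 5.44, 6.79 and 9.06 CPM. They were 12.4, 14.5 and 17.2 CPM in FAD IgG hippocampus, clear of WT, and 7.00, 14.0 and 16.3 CPM in FAD CD38. A single FAD CD38 mouse, replicate 3, lay inside the WT range, and the next lowest had 12.1 CPM. The log2 fold change was 1.12 ± 0.18 for FAD IgG (adjusted p = 0.000208) and 0.99 ± 0.17 for FAD CD38 (adjusted p = 0.000697). Within library pools, which each hold wells sequenced together, Csf1 was higher in FAD IgG than in WT in 6 of 6 pools with both groups, in either region. It was higher in FAD CD38 than in WT in 7 of 7.

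The cortical well of FAD CD38 replicate 7 held 1754 CPM of choroid plexus markers, against 135 to 195 CPM in the other cortices of its group, and 9.57% ribosomal RNA. It was the lowest of its group for Csf1 (7.93 CPM), Csf1r (48.8 CPM) and Csf2ra (15.4 CPM). Without its pool, FAD CD38 cortex against WT gave 1.20 for Csf1 (adjusted p = 0.000240), 1.12 for Csf1r (adjusted p = 2.03e-05) and 0.88 for Csf2ra (adjusted p = 0.00356).

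The hippocampal well of FAD CD38 replicate 3, from pool 7, stood apart from the rest of its group. It held 1428454 counts, of which 19.3% were ribosomal RNA, and its summed level of 6 choroid plexus markers was 15950 CPM, against 86.7 to 146 CPM in the other wells of the group. It was the lowest of its group for Csf1, Il34, Csf1r, Csf2ra and Csf3r, and the highest for Csf2rb. The part of these features in its levels was not tested. Without the 6 wells of high ribosomal RNA, which include this one, FAD CD38 hippocampus against WT gave 1.17 for Csf1 (adjusted p = 4.56e-06), 1.36 for Csf1r (adjusted p = 6.66e-09) and 2.24 for Csf3r (adjusted p = 1.08e-06), a choice made after seeing the data. The test of Csf3r rests on its level in FAD mice.

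Il34, the ligand from neurons, stayed within overlapping ranges in every group. In cortex it ran from 29.9 to 43.7 CPM in WT (median 34.4), from 18.9 to 36.9 in FAD IgG (median 34.2) and from 29.9 to 39.7 in FAD CD38 (median 32.1). In hippocampus the ranges were 15.6 to 38.4 CPM in WT (median 27.8), 20.2 to 33.2 in FAD IgG (median 28.4) and 16.8 to 34.2 in FAD CD38 (median 29.9). The medians of the groups within a region lay close together. The lowest well in cortex, FAD IgG replicate 6, held 1270918 counts with 13.4% ribosomal RNA. The lowest in hippocampus, WT replicate 6, had 27.03% ribosomal RNA, the highest share of any well.

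No test of Il34 between groups passed. Its log2 fold change in cortex was -0.25 ± 0.11 for FAD IgG against WT (95% interval -0.47 to -0.02, adjusted p = 0.277) and -0.10 ± 0.10 for FAD CD38 (adjusted p = 0.672). In hippocampus these were -0.06 ± 0.15 (interval -0.38 to 0.26, adjusted p = 0.903) and -0.10 ± 0.15 (adjusted p = 0.780). A rise of the size seen for Csf1 thus lies outside these intervals, while a small decrease in cortex does not. Without the wells of high ribosomal RNA the cortical value for FAD IgG was -0.17 (adjusted p = 0.656).

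**Figure D1:**
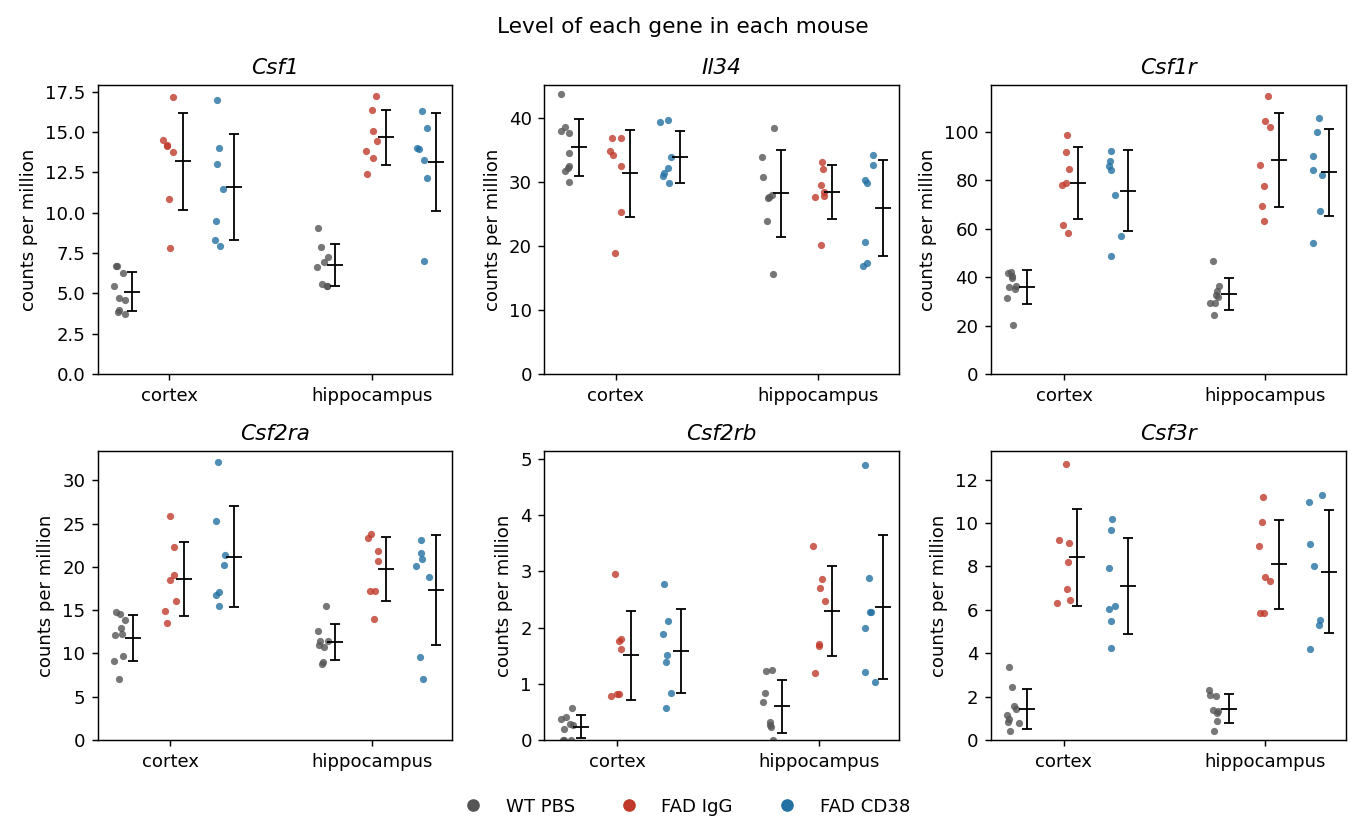
Level of each gene in CPM (vertical axis, from 0) in WT PBS, FAD IgG and FAD CD38 mice, in cortex and hippocampus; each point is 1 mouse, with the mean and SD (bars) beside the points. FAD mice lie above nearly all WT mice for Csf1, Csf1r, Csf2rb and Csf3r, overlap WT in part for Csf2ra, and share the WT range for Il34.

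The balance of the ligands differed accordingly. It was measured in each mouse as the log2 CPM of Csf1 minus that of Il34 and compared only between groups, because the capture of transcripts of different genes may differ. In cortex it ran from -3.34 to -2.16 in WT, from -2.15 to -0.40 in FAD IgG and from -2.15 to -0.97 in FAD CD38. The cortical ranges of FAD and WT mice did not overlap, though they nearly touched. The mean difference from WT was 1.46 for FAD IgG (two-sided exact permutation test, p = 8.74e-05, the smallest this design can give, adjusted over 12 tests of ratios p = 0.00105). For FAD CD38 it was 1.14 (adjusted exact permutation p = 0.00105), and 7 of 7 mice of each FAD group were above the WT mean.

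In hippocampus the difference from WT was 1.03 for FAD IgG (exact permutation test, adjusted p = 0.00622) and 1.01 for FAD CD38 (exact permutation test, adjusted p = 0.00886). Here the ranges overlapped through WT replicate 6, the well of 27.03% ribosomal RNA, at -0.75. All other WT hippocampi lay between -2.68 and -1.77, below every FAD hippocampus.

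**Figure D2:**
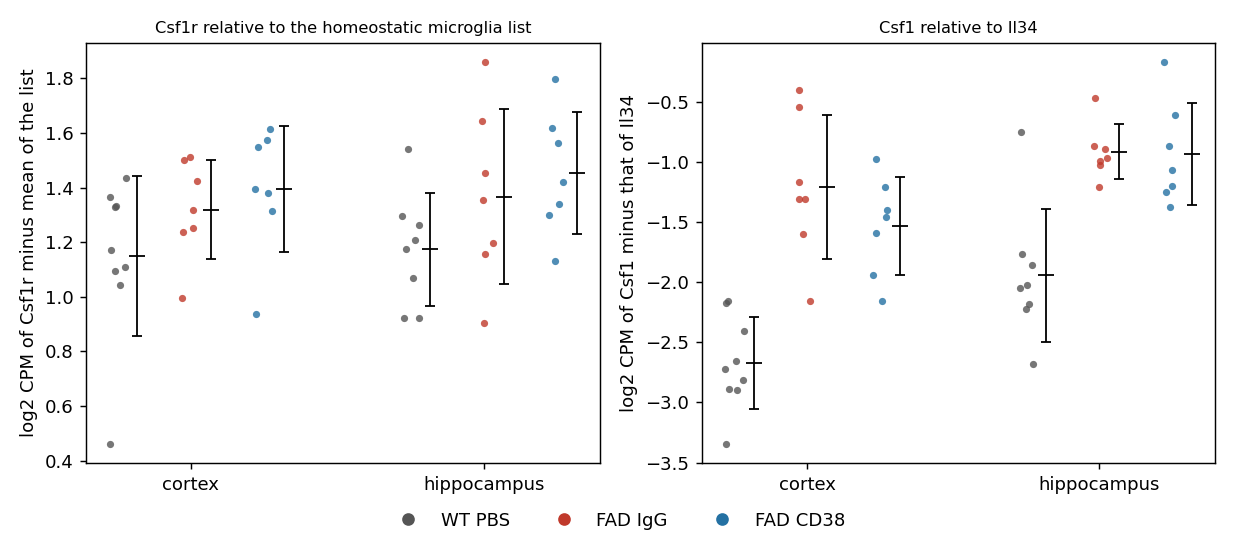
Left, log2 CPM of Csf1r minus the mean log2 CPM of 16 homeostatic microglia genes; right, log2 CPM of Csf1 minus that of Il34; each point is 1 mouse, with group mean and SD (bars), in cortex and hippocampus. On the right the FAD groups sit above WT by 1.01 to 1.46 on average, and on the left the groups overlap throughout.

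Csf1r, the receptor of both ligands, rose in FAD mice of either group and region. In WT cortex the lowest, median and highest mouse had 20.2, 36.2 and 42.1 CPM of Csf1r. In FAD IgG cortex these were 58.2, 78.6 and 98.8 CPM, and in FAD CD38 cortex 48.8, 84.4 and 92.0 CPM. Every FAD cortex lay above every WT cortex. The log2 fold change was 1.08 ± 0.15 for FAD IgG (adjusted p = 1.77e-05) and 1.02 ± 0.14 for FAD CD38 (adjusted p = 2.53e-05), which is 2.12-fold and 2.02-fold.

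In hippocampus Csf1r went from 24.3, 32.3 and 46.8 CPM in WT to 63.2, 86.2 and 115 CPM in FAD IgG. The FAD CD38 hippocampi had 53.9, 84.1 and 106 CPM. The FAD hippocampi were again clear of WT, replicate 3 of FAD CD38 included. The log2 fold change was 1.46 ± 0.15 for FAD IgG (2.75-fold, adjusted p = 1.48e-06) and 1.37 ± 0.15 for FAD CD38 (2.59-fold, adjusted p = 1.81e-06). Csf1r was higher in FAD than in WT in every pool that held both groups, by 0.77 to 1.33 in cortex and 1.01 to 1.72 in hippocampus for FAD IgG (log2 CPM).

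In gene annotation GENCODE M21 the 3' end of Csf1r overlaps that of Hmgxb3, a gene on the opposite strand, by 873 bases. Use of strand in the counting was not given in the sources used here. Reads of this overlap could therefore have been split between the genes. Hmgxb3 itself had group means of 2.98 to 5.14 CPM and passed no test between groups (adjusted p of 0.573 or above).

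Csf2ra, the chain specific to granulocyte-macrophage colony-stimulating factor, rose less, and part of its mice overlapped WT. In cortex it ran from 7.02 to 14.7 CPM in WT (median 12.3), from 13.5 to 25.9 in FAD IgG (median 18.4) and from 15.4 to 32.1 in FAD CD38 (median 20.3). FAD CD38 cortices were all above WT, as were 6 of 7 FAD IgG cortices, and replicate 3 of FAD IgG (13.5 CPM) lay within the WT range. The log2 fold change was 0.65 ± 0.17 for FAD IgG (1.57-fold, adjusted p = 0.0313) and 0.82 ± 0.17 for FAD CD38 (1.76-fold, adjusted p = 0.00242). The FAD IgG call did not hold without pool 5, 7, 8 or 9, nor without the wells of high ribosomal RNA, with adjusted p of 0.0529 to 0.170. The FAD CD38 call held without any 1 pool (adjusted p at most 0.0149).

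In hippocampus Csf2ra ran from 8.80 to 15.5 CPM in WT (median 11.2), from 14.0 to 23.8 in FAD IgG (median 20.6) and from 7.00 to 23.1 in FAD CD38 (median 20.1). The FAD CD38 group held 5 mice from 18.8 CPM up and 2 mice at 7.00 and 9.64 CPM, within the WT range, replicates 3 and 7. The log2 fold change was 0.75 ± 0.17 for FAD IgG (adjusted p = 0.00748, lost without pool 5 at 0.0521) and 0.63 ± 0.16 for FAD CD38 (adjusted p = 0.0286). The latter did not hold without pool 5, 6, 8, 9 or 10 (adjusted p = 0.0623 to 0.149). It was 0.72 (adjusted p = 0.00131) without the wells of high ribosomal RNA, which include replicate 3. Csf2ra was higher in FAD CD38 than in WT hippocampus in 5 of 7 pools.

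Csf2rb, the shared signalling chain, was counted rarely and did not pass the filter on low counts. In cortex 9 WT mice gave 7 counts in all, with 3 wells at 0, against 37 in 7 FAD IgG mice and 33 in 7 FAD CD38 mice. Mean levels were 0.234 ± 0.205 CPM in WT, 1.51 ± 0.789 in FAD IgG and 1.58 ± 0.753 in FAD CD38. The lowest FAD well (0.578 CPM) lay just above the highest WT well (0.572 CPM), and each held 2 counts. In raw counts the ranges overlapped, with FAD IgG wells from 1 count and WT wells up to 2. In hippocampus there were 15, 51 and 38 counts, with means of 0.602 ± 0.472, 2.30 ± 0.798 and 2.37 ± 1.29 CPM. Here the ranges of CPM overlapped, with WT reaching 1.24 CPM and the FAD groups going down to 1.20 and 1.04 CPM. The ratio of the means to WT was 6.43 and 6.76 in cortex and 3.82 and 3.93 in hippocampus, for FAD IgG and FAD CD38 in turn.

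With no filter on low counts, edgeR gave Csf2rb a log2 fold change of 2.70 ± 0.51 (adjusted p = 0.000373) for FAD IgG and 2.61 ± 0.50 (adjusted p = 0.000451) for FAD CD38 in cortex. In hippocampus these were 1.93 ± 0.47 (adjusted p = 0.0149) and 1.94 ± 0.48 (adjusted p = 0.0157). Csf2rb2, the near copy of Csf2rb that serves IL-3, had group means of 0.124 to 0.648 CPM and passed no such test. In GENCODE M21 0 of 451 stretches of 50 bases in the last 500 bases of the Csf2rb transcript occur in Csf2rb2, against 18.4% of 4851 over the whole transcript.

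Csf3r, the receptor of granulocyte colony-stimulating factor, was near the limit of counting in WT mice and higher in FAD mice. In WT cortex the lowest, median and highest mouse had 0.419, 1.14 and 3.35 CPM of Csf3r. These were 6.29, 8.21 and 12.7 CPM in FAD IgG cortex and 4.23, 6.16 and 10.2 CPM in FAD CD38 cortex. In hippocampus WT mice had 0.412, 1.35 and 2.29 CPM, FAD IgG mice 5.83, 7.54 and 11.2 CPM and FAD CD38 mice 4.2, 8.03 and 11.3 CPM. The FAD and WT ranges did not overlap in either region, for a gene tested because of its level in FAD mice. Over all genes tested, 1.89% in cortex and 2.95% in hippocampus were higher without overlap for FAD IgG. For FAD CD38 these shares were 1.6% and 2.17%.

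The log2 fold change of Csf3r in cortex was 2.57 ± 0.30 for FAD IgG (5.96-fold, adjusted p = 1.56e-06) and 2.19 ± 0.29 for FAD CD38 (4.56-fold, adjusted p = 1.29e-05). In hippocampus it was 2.40 ± 0.27 (5.29-fold, adjusted p = 4.55e-06) and 2.33 ± 0.27 (5.04-fold, adjusted p = 5.54e-06). A WT well held 1 to 12 counts of this gene. Only 1 of 9 WT cortices and 0 of 8 WT hippocampi reached the level the filter asks for, so Csf3r was tested because of its level in FAD mice and had to differ.

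**Figure D3:**
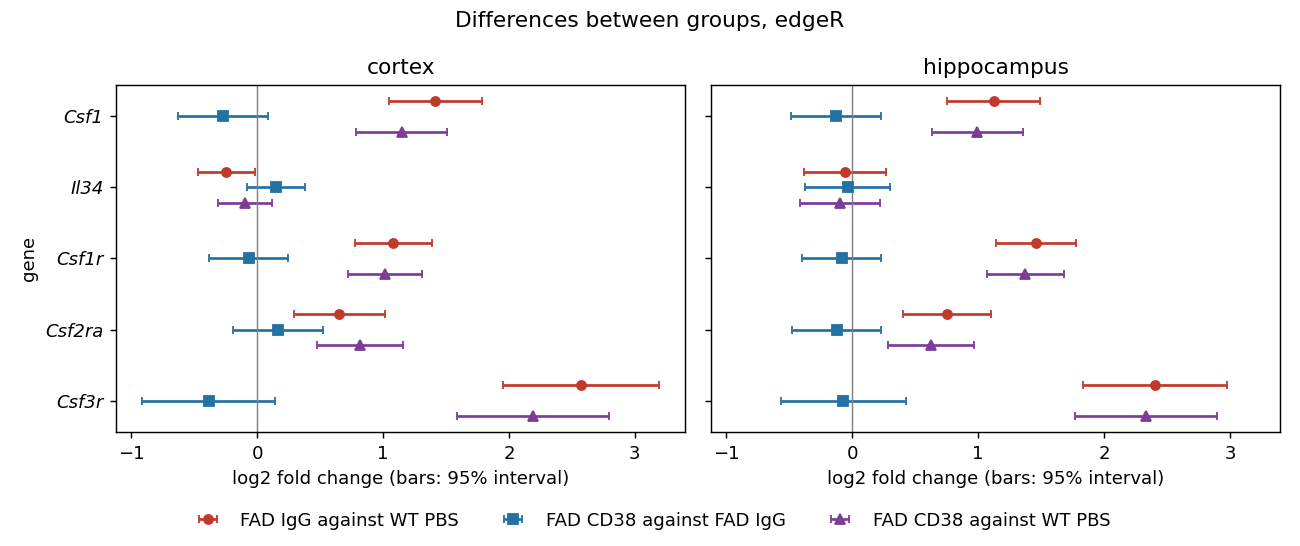
Log2 fold changes (horizontal axis) of the 5 genes tested, with 95% intervals (bars), for the 3 comparisons of groups in cortex and hippocampus, from edgeR. Both comparisons with WT lie above 0 for Csf1, Csf1r, Csf2ra and Csf3r, the intervals of Il34 against WT reach at most 0.26, and all intervals of FAD CD38 against FAD IgG include 0.

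Csf1, Csf1r and Csf2ra were thus higher in each comparison with WT and Il34 was not called, while Csf3r, whose test rests on its level in FAD mice, is left out of this count. The calls of Csf2ra depended on the fit. Of 18 alternative fits, Csf2ra passed in 13 for FAD IgG and 18 for FAD CD38 in cortex, and in 17 and 11 in hippocampus. Over all genes tested, FAD IgG against WT called 3.34% higher and 0.532% lower in cortex and 4.49% and 0.416% in hippocampus. For FAD CD38 against WT these shares were 3.3% and 1.21% in cortex and 4.56% and 0.754% in hippocampus. With Csf3r left out here too, FAD and WT ranges did not overlap for Csf1 and Csf1r in the FAD IgG comparisons. There 1.89% of cortical and 2.95% of hippocampal genes were higher without overlap. For FAD CD38 the ranges did not overlap for Csf1, Csf1r and Csf2ra in cortex (1.6% of genes) and for Csf1r in hippocampus (2.17%). The comparisons with WT share the WT mice, so their values stand side by side and do not support each other.

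Between FAD CD38 and FAD IgG no member passed the test. In cortex the log2 differences were -0.27 for Csf1 (95% interval -0.63 to 0.09), 0.15 for Il34 (-0.08 to 0.38), -0.07 for Csf1r (-0.38 to 0.25), 0.17 for Csf2ra (-0.19 to 0.53) and -0.39 for Csf3r (-0.92 to 0.14). In hippocampus the differences ran from -0.13 for Csf1 (-0.49 to 0.23) to -0.04 for Il34 (-0.37 to 0.30), with Csf1r at -0.09 (-0.40 to 0.23), Csf2ra at -0.13 (-0.48 to 0.23) and Csf3r at -0.07 (-0.57 to 0.42). The adjusted p was 0.9996 for each gene in cortex and 0.9999 in hippocampus, and the widest interval, that of Csf3r in cortex, reaches -0.92. By edgeR 0 of 12968 genes (0%) were called in cortex and 0 of 12728 (0%) in hippocampus, with 195 and 197 at an unadjusted p under 0.05. DESeq2 and limma with sample quality weights called 0 as well.

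The ratio of the ligands overlapped between these groups. The difference between FAD CD38 and FAD IgG in Csf1 relative to Il34 was -0.32 in cortex (exact permutation test, adjusted p = 0.354) and -0.02 in hippocampus (exact permutation test, adjusted p = 0.921). With pool effects fitted beside the group and then removed, the cortical value was -0.46 (permutation test, adjusted p = 0.0396). That permutation does not allow for the fitted pool effects, so its p is not exact and no call is taken from it.

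Cortex and hippocampus of the same mouse were compared in 23 mice with the mouse as a block. The pool 8 mouse of disagreeing treatment labels is among them, also where FAD mice alone were fitted. Il34 was lower in hippocampus in 22 of 23 mice, by -0.31 ± 0.06 (log2, adjusted p = 8.4e-05), a difference that held in WT mice alone (-0.33, adjusted p = 0.0223) and in FAD mice alone (-0.28, adjusted p = 0.00618). Over all genes 22.2% were called higher and 24.3% lower in hippocampus, so a difference of this kind is common. Csf1 was at 0.22 ± 0.10 (adjusted p = 0.0648), Csf1r at 0.04 ± 0.06 (adjusted p = 0.624), Csf2ra at -0.13 ± 0.09 (adjusted p = 0.232) and Csf3r at 0.03 ± 0.11 (adjusted p = 0.845). None of these 4 passed. Csf2rb, not tested, was higher in hippocampus in 16 of 23 mice.

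For Csf1r the values of WT mice alone and of FAD mice alone had opposite signs, and that of WT did not pass. In WT mice alone hippocampus was at -0.19 ± 0.11 (adjusted p = 0.206), and in FAD mice alone at 0.15 ± 0.06 (adjusted p = 0.0443). The difference between WT mice and all FAD mice in this was not tested. For FAD IgG mice alone, the effect against WT in hippocampus minus that in cortex was 0.29 ± 0.16 and did not pass (limma with the mouse as a correlated block, 95% interval -0.02 to 0.61, adjusted p = 0.650). By that test 0.186% of genes had a higher and 0.0223% a lower effect in hippocampus, and no member was among them (adjusted p from 0.650 to 0.971).

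**Figure D4:**
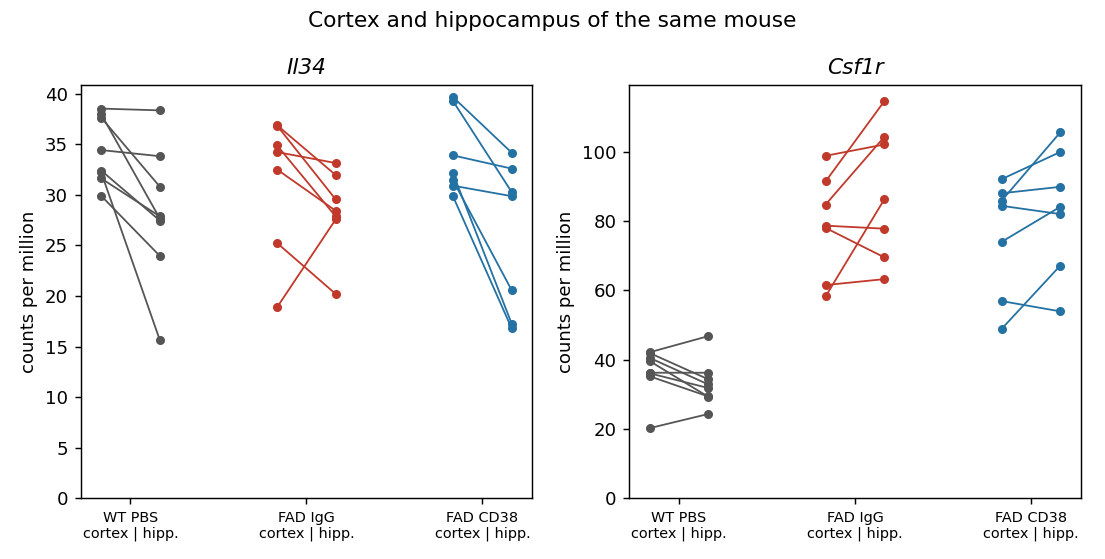
Il34 (left) and Csf1r (right) in CPM, with each mouse's cortex joined to its hippocampus, for the 3 groups. Il34 falls from cortex to hippocampus in nearly every mouse, while Csf1r lines of WT and FAD mice run at separate heights.

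The order of levels within a gene follows from these values. Csf1, Csf1r, Csf2ra, Csf2rb and Csf3r were lower in WT cortex and WT hippocampus than in all 4 sets of FAD wells by group mean. Neighbours within the FAD sets and within the WT pair differed by less than their SD for Csf1r, Csf2ra and Csf3r. For Csf1 this held among the FAD sets, while WT hippocampus (6.77 ± 1.29 CPM) lay above WT cortex (5.11 ± 1.20 CPM) by more than the SD. Il34 had its highest means in cortex (35.4 ± 4.41 CPM in WT, 33.9 ± 4.02 in FAD CD38 and 31.4 ± 6.78 in FAD IgG) and lower ones in hippocampus (28.4 ± 4.18 in FAD IgG, 28.2 ± 6.74 in WT and 25.9 ± 7.46 in FAD CD38), and no neighbours in that order differed by more than their SD.

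Transcripts of a list of genes linked to signalling by these receptors were also counted. Of 25 such genes tested in cortex 10 were higher in FAD IgG than in WT and none lower, with a median log2 fold change of 0.39 against 0.01 over all genes. In hippocampus, where 4.49% of all genes were called higher (3.34% in cortex), 11 of 24 were higher (median 0.60, all genes 0.00). Among those that rose were Tyrobp, the adaptor that pairs with TREM2 and also relays CSF1R signals (2.51 in cortex, 2.72 in hippocampus), Ptpn6, the phosphatase SHP-1 (2.38 and 2.38), and Ptprc, the leukocyte phosphatase CD45 (2.73 and 2.21). Tyrobp is also in the list of plaque-associated microglia genes below. The part of the number of microglia in the rise of this list was not tested.

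Among kinases of this list Lyn, of the SRC family, rose by 1.51 in cortex and 1.22 in hippocampus, and Fes by 1.47 and 1.57. Vav1, a signalling protein of blood-lineage cells, rose by 1.22 and 1.52. Stat3, which carries signals of the CSF3 receptor, rose by 0.90 and 1.05. Grb2, a widely expressed adaptor, passed no test in cortex (0.14, adjusted p = 0.590). For FAD CD38 against WT 9 of 25 were higher in cortex (median 0.36, 3.3% of all genes higher) and 11 of 24 in hippocampus (median 0.55, 4.56% of all genes). Among the list genes called were Pik3cg, a catalytic subunit of PI3 kinase (1.97 and 2.13), and Inpp5d, the phosphatase SHIP1 (0.93 and 1.52).

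Transcription factors listed for the myeloid lineage were higher in 6 of 13 cases in FAD IgG cortex and 10 of 13 in hippocampus (medians 0.77 and 1.18). The list shares a gene with the markers of cortex, at -1.70 in hippocampus against cortex, so not all of it is particular to myeloid cells. Over all genes tested 3.34% were called higher in cortex and 4.49% in hippocampus. Spi1, the gene of PU.1, rose by 1.29 ± 0.27 in cortex (adjusted p = 0.00390) and 1.47 ± 0.29 in hippocampus (adjusted p = 0.00224). Runx1 rose by 2.98 and 2.48 and Irf5 by 1.45 and 1.18. With FAD CD38 6 of 13 were higher in cortex (3.3% of all genes) and 7 of 13 in hippocampus (4.56%), Cebpa among them (1.64 and 1.37). Of the other ligands and receptor chains of these families only Kit and its ligand Kitl were tested, and neither passed a test between groups.

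Markers of microglia rose beside the receptors. Of 16 homeostatic microglia genes 12 were higher in FAD IgG cortex and 14 in hippocampus (medians 0.98 and 1.25), with Gpr34 at 1.42 and Siglech at 1.24 in cortex. Their summed level ran from 396 to 563 CPM in WT cortex and from 735 to 1173 in FAD IgG cortex. Of 15 genes of plaque-associated microglia 14 and 15 were higher (medians 2.90 and 3.03), led by Cst7, a cystatin (6.79 and 6.55). Which genes of this list and of those above passed the filter on low counts only through FAD mice was not examined. Any gene that did so had to differ, as with Csf3r. Over all genes tested 3.34% were called higher in FAD IgG cortex and 4.49% in hippocampus. The part of the number of microglia in the rise of the receptors was not tested. The values that follow cannot tell it apart from RNA per cell.

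Relative to the homeostatic list, no test of Csf1r between groups passed. Its log2 CPM minus the mean of the 16 genes was 1.15 ± 0.29 in WT cortex (SD, n = 9), 1.32 ± 0.18 in FAD IgG (n = 7) and 1.39 ± 0.23 in FAD CD38 (n = 7). The hippocampal values were 1.17 ± 0.21 (n = 8), 1.37 ± 0.32 (n = 7) and 1.45 ± 0.22 (n = 7). The differences from WT were 0.17 to 0.28, with adjusted p from 0.0653 to 0.302 in exact permutation tests. For FAD CD38 against WT the threshold was passed without pool 11 in cortex (0.35, exact permutation test, adjusted p = 0.0252) and in hippocampus (0.33, adjusted p = 0.0315). With pool effects fitted beside the group and then removed, the hippocampal value was 0.30 (permutation test, adjusted p = 0.00932). That permutation does not allow for the fitted pool effects, so its p is not exact and no call is taken from it.

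With the mean level of the homeostatic list as a covariate, the FAD IgG value of Csf1r fell to 0.26 ± 0.28 in cortex (adjusted p = 0.581) and 0.91 ± 0.39 in hippocampus (adjusted p = 0.122). Csf1 stood at 0.48 ± 0.36 (adjusted p = 0.472) and 0.89 ± 0.51 (adjusted p = 0.243), and Csf2ra at -0.0013 ± 0.54 (adjusted p = 0.9995) and -0.37 ± 0.44 (adjusted p = 0.690). Csf3r, tested because of its level in FAD mice, stood at 3.33 ± 0.63 in cortex (adjusted p = 0.00730) and 2.12 ± 0.81 in hippocampus (adjusted p = 0.0886). The covariate is itself higher in FAD mice, and standard errors grew with it, from 0.15 to 0.28 for Csf1r in cortex.

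**Figure D5:**
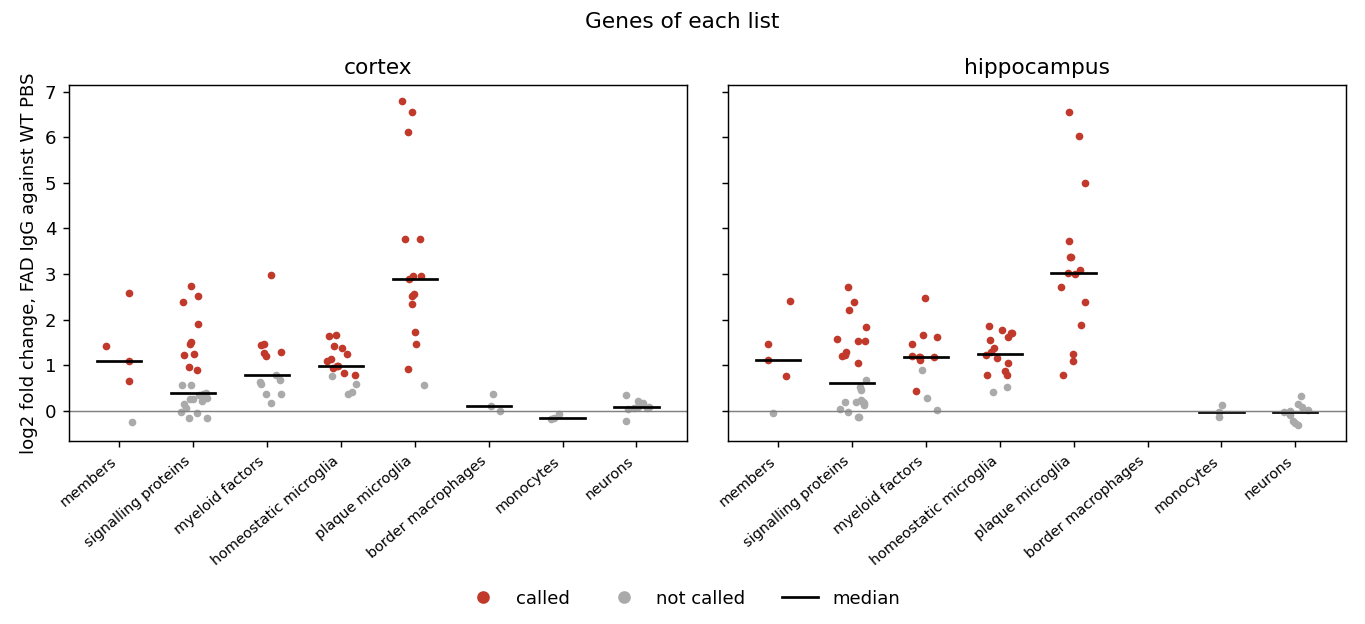
Log2 fold change of FAD IgG against WT (vertical axis) for each gene tested in 8 lists, in cortex and hippocampus; red points were called, grey points were not, and black lines are medians; no border macrophage gene was tested in hippocampus. The lists of microglia and myeloid factors lie above 0, and those of monocytes and neurons lie near it.

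Markers of other cells that carry these receptors were rare or passed no test between groups. Of the 12 neutrophil genes listed 6 are in the table, among them S100a8, S100a9, Camp and Cxcr2, and none had enough counts to be tested. Their summed level was 0.286 to 4.21 CPM in WT cortex and 1.57 to 3.80 in FAD IgG cortex, and 1.23 to 3.08 and 1.21 to 4.31 CPM in hippocampus. Over all wells of a group and region, the 6 genes had from 1 count (S100a8 and Camp) to 30 (Hdc), with Cxcr2, the chemokine receptor of neutrophils, at 2 to 6 and Mmp9 at 10 to 27. The part of such cells in the level of Csf3r was not tested. Of 3 blood monocyte genes tested 0 were called in any comparison between groups, and Ccr2 had 1 to 5 counts per group and region. Border macrophage genes were called in 0 of 3 cases in cortex, with summed levels of 13.4 to 21.1 CPM in WT and 16.8 to 25.8 in FAD IgG.

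Of 9 astrocyte markers 2 were higher in cortex of FAD IgG mice and of FAD CD38 mice (medians 0.12 and -0.02, with 3.34% and 3.3% of all genes higher). In hippocampus 5 of 9 were higher with FAD IgG and 3 of 9 with FAD CD38 (medians 0.47 and 0.44, with 4.49% and 4.56% of all genes higher). Gfap, the filament protein of reactive astrocytes, rose by 3.39 in cortex and 2.74 in hippocampus with FAD IgG, and Aqp4, a water channel, by 1.18 and 1.57. Their summed level ran from 2779 to 4577 CPM in WT and from 3539 to 5774 CPM in FAD IgG cortex, and from 2973 to 4321 and 3608 to 5067 CPM in hippocampus. Of 9 oligodendrocyte genes 1 was higher in each comparison with WT, Cldn11, a tight junction protein (0.91 in cortex and 1.07 in hippocampus with FAD IgG). The part of these cells in the rise of Csf1 was not tested.

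Neuron markers were called in 0 of 10 cases in FAD IgG cortex and 0 of 10 in hippocampus (medians 0.09 and -0.02). Striatal markers in cortex were all below 0 in FAD IgG (9 of 9, median -0.78, 0 called), and their part in the results was not tested beyond their use as a covariate. With that covariate the FAD IgG value of Csf2ra in cortex was 0.50 (adjusted p = 0.357) and that of FAD CD38 0.69 (adjusted p = 0.0741), while the calls of Csf1 and Csf1r held. That of Csf3r, tested because of its level in FAD mice, stayed as well.

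As a description, the genes most like each of 3 members were ranked over 45 wells by Pearson r of log2 CPM, after the mean of each group in each region and the effect of the pool were removed. For Csf1 these were Dusp28 (0.74), Map6 (0.66), Spg21 (0.62), Pea15a (0.60) and C1qa (0.60). For Il34 they were Tac2 (0.80), Crbn (0.72), Cnot8 (0.70), Tmub2 (0.70) and Tmem14a (0.70). For Csf1r they were Rpa1 (0.83), Scamp3 (0.80), Itgb5 (0.80), Gm5555 (0.79) and Fasn (0.79). The wells share pools, depth and RNA quality. Among the members the highest such r was 0.50, for Csf1 with Csf2ra, and that of Csf1 with its receptor was 0.32.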

How the data were processed

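The deposited values are raw whole-number counts per gene and well, made by the authors with bcl2fastq 2.17 and STAR 2.5.3a among other tools, per the submitters' processing notes. Genome build, annotation, counting program and use of molecular identifiers were not given in the sources used here. Each deposited sample is a pool of mice; mouse, region and group of each well came from the deposited sample sheet. The members, gene lists and tests were chosen with earlier results of these data known. Counts of a region were fitted with edgeR 4.0.16 (R 4.3.3; robust quasi-likelihood test, TMM, filterByExpr with minimum count 10 and total 15), 3 groups in 1 fit and the pool as an additive factor. Tests were two-sided, with Benjamini-Hochberg adjustment over all genes tested and a threshold of 0.05. Region differences used limma 3.58.1 (voom, mouse as correlated block), and hippocampus against cortex edgeR with the mouse as block. Ratios used log2 CPM (TMM, prior count 2) and exact permutation tests. Replicates are different mice; the closest replicate wells differed by 2.74 times the sampling noise (chi-square over degrees of freedom), so none was counted as a repeat. Named genes were the members, Csf2rb2, Hmgxb3, up to 4 called genes of smallest p per list and direction, and the 5 most like Csf1, Il34 and Csf1r; uncalled genes named beside a list were chosen after their values were seen. The code was tested on simulated counts. Depth leaves genes of a few CPM with about 10 counts a well. Alternatives were DESeq2 1.42.0, RLE factors, other filters, no pool term, only 2 groups, voom weights, each pool left out, the mouse of disagreeing labels assigned either way, and covariates; leaving out wells of high ribosomal RNA was added after seeing the data. Some genes that this rule names are not reported here.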

Additional observations from a re-analysis of the deposited data

Results flagged for a closer look

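In 36 groups of wells (6 genes, 3 groups, 2 regions), 2 had a well far from the others by Dixon's criterion, which chance alone flags in about 1 of 20 groups. Il34 in hippocampus of FAD IgG replicate 5 (pool 9) was 20.2 CPM, with the next well at 27.6. That well had 16.6% ribosomal RNA and a summed choroid plexus level of 9056 CPM. Csf1r in cortex of WT replicate 6 (pool 8) was 20.2 CPM, with the next at 31.4.

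The mouse whose sample sheet and well name disagree on treatment is FAD by both and entered no comparison between groups. Its levels were above the highest WT well for Csf1 (10.9 CPM in cortex, 19.0 in hippocampus), Csf1r (79.0 and 86.3), Csf2rb (0.667 and 2.88) and Csf3r (8.45 and 8.63), and for Csf2ra in cortex (24.9). Counted with either FAD group, it changed no call of a member.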

How the results depend on the processing

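Values are log2 differences, and where a call or direction changed the cause was not tested. Against WT, Csf1 and Csf1r passed in 18 of 18 alternatives in each comparison, covariates on cell lists apart. Csf3r also passed in 18 of 18, but it was tested because of its level in FAD mice, so this is no support. Csf2ra passed in 13 alternatives (FAD IgG, cortex), 18 (FAD CD38, cortex), 17 (FAD IgG, hippocampus) and 11 (FAD CD38, hippocampus). Il34 passed no threshold between groups in these, and the Csf2rb ratio stayed above 0 against WT (1.57 to 2.26 in FAD CD38 hippocampus) and took either sign between the FAD groups (-0.12 to 0.27 in cortex, -0.30 to 0.17 in hippocampus). With the homeostatic microglia level as covariate, FAD IgG cortex gave 0.48 for Csf1, 0.26 for Csf1r and -0.0013 for Csf2ra, and FAD CD38 cortex 0.36, 0.35 and 0.28. In hippocampus it gave 0.89, 0.91, -0.37 and, for Csf3r, 2.12 with FAD IgG, and 0.78, 0.88, -0.40 and 2.08 with FAD CD38. Between the FAD groups it turned Csf1r in cortex to 0.085 and Il34 in hippocampus to 0.019. With the striatal covariate Csf2ra in cortex no longer passed, at 0.50 and 0.69. Without wells of high ribosomal RNA, Csf2ra in FAD IgG cortex was 0.59 and not called, and Csf1 between the FAD hippocampi was 0.12. Csf2ra in FAD CD38 hippocampus was not called with only the compared groups fitted (0.61) or with no filter (0.60). Between the FAD hippocampi Csf1 was 0.051 with voom weights, and Csf3r 0.017 without the pool term. Csf1r in hippocampus against cortex was -0.19 in WT mice only and 0.15, now called, in FAD mice only; leaving out the mouse as replicate block changed no call of a member between regions, with Il34 at -0.31. With pool effects fitted beside the group and then removed, Csf1r relative to the homeostatic list in FAD CD38 hippocampus was 0.30. In that setting Csf1 relative to Il34 between the FAD groups was -0.46 in cortex and turned to 0.032 in hippocampus. The permutation used there does not allow for the fitted pool effects, so no call is taken from it. With each pool left out in turn, Csf2ra against WT ran from 0.52 to 0.75 (FAD IgG, cortex), 0.71 to 0.82 (FAD IgG, hippocampus) and 0.53 to 0.73 (FAD CD38, hippocampus), and Il34 in hippocampus from -0.12 to 0.029 (FAD IgG) and -0.23 to 0.020 (FAD CD38). Between the FAD groups, cortical Csf1r ran from -0.15 to 0.0081 and Csf2ra from -0.034 to 0.31, and hippocampal Il34 from -0.11 to 0.083, Csf1r from -0.16 to 0.0026, Csf2ra from -0.19 to 0.0068, Csf3r from -0.19 to 0.060 and Csf1 relative to Il34 from -0.16 to 0.056. Csf1r relative to the homeostatic list ran from 0.18 to 0.35 in cortex and 0.19 to 0.33 in hippocampus for FAD CD38 against WT. Over all genes, calls higher than WT ran from 346 to 552 (main 433) and 331 to 843 (428) in cortex and 419 to 1194 (571) and 354 to 1554 (580) in hippocampus, for FAD IgG and FAD CD38 in turn; calls lower ran from 15 to 296 (69), 32 to 544 (157), 9 to 733 (53) and 19 to 1203 (96). Between the FAD groups every alternative called 0. Csf2rb and WT Csf3r rest on few counts a well, which limits their precision.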
